A study of Mus musculus with 2 samples.

Results

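Chemokines are small secreted proteins that direct the movement of cells, and their receptors span the membrane and signal through G proteins of the Gi class. The genes described here are the chemokine ligands and chemokine receptors listed in RNA sequencing tables of cultured dentate gyrus (DG) astrocytes from wild type (WT) and β-arr1 KO mice. They were chosen by gene symbol alone, whatever their expression. The rule found 46 genes of the 16302 symbols in the joined tables. Of these, 29 were ligands, 13 were typical receptors and 4 were atypical receptors. Both tables listed 31 of the 46, the WT table alone listed 7 and the KO table alone listed 8. Of all 16302 symbols, both tables listed 14448. A level of at least 1 FPKM in a library was reached by 21 genes, of which 16 were ligands and 5 were receptors.

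Both libraries came from mice that the labels give as C57BL/6, and the study's methods name the background of the KO line as C57BL/6J. WT mice carried the intact Arrb1 gene, and β-arr1 KO mice came from a knockout line of β-arrestin1 that was not limited to a cell type, so that every kind of cell in the dish carried the mutation. Astrocytes were grown from the DG of adult mice in medium with serum and shaken to detach loosely bound cells, and RNA was taken from about 1000000 cultured cells. The labels call the cDNA pooled, and there was 1 library per genotype. Differences between WT and KO therefore had no replicate check, and no test of genotype was possible. FPKM, the number of fragments per kilobase of a gene's transcript for a fixed number of mapped fragments, takes the length of the gene and the size of the library into account. A gene without a row in a table is called not listed, since no row holds a 0. The steps between the lowest values gave an estimated depth of 9.38 M fragments in WT and 9.52 M fragments in KO. From these, the fragments behind each gene were estimated, and a 95% Clopper-Pearson interval was set on each ratio. The interval covers counting error only, and does not cover the variation between cultures.

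The targeted gene, Arrb1, stood at 7.62 FPKM in WT and 2.72 in KO, a ratio of 0.358. The astrocyte marker Gfap, an intermediate filament gene, was at 189 FPKM in WT and 192 in KO. Both cultures also held microglia and macrophage markers, with a summed level of 2134 in WT and 1632 FPKM in KO over 17 listed genes. Of 4 genes of the Y chromosome, 4 were listed in KO and 0 in WT, so that the sex of the cultured cells and the genotype cannot be told apart.

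The family is divided by the spacing of the first cysteines of the mature protein. In CC ligands they are adjacent, in CXC ligands a single residue lies between them, and in CX3C ligands there are 3 residues. Ligands bind typical receptors named after the same classes. After a typical receptor is engaged, G protein receptor kinases phosphorylate it and β-arrestins bind it, which ends G protein signalling and starts internalization. Atypical receptors bind chemokines without activating G proteins and act by taking up or presenting them. In the brain, fractalkine (Cx3cl1) with its receptor Cx3cr1, and Cxcl12 with Cxcr4, are the pairs best known from neurons, glia and microglia, and CC ligands such as Ccl2 are released by glia and microglia in inflammation.

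The coding sequence around these cysteines is shown for 5 of the compared ligands, because it is the feature that names the classes. It is written 5′ to 3′ on the coding strand, with the cysteine codons in capitals, and each stretch lies in 1 coding exon of the NCBIM37 (mm9) genome. Ccl2 (chr11:81849996-81850025, plus strand) and Ccl20 (chr1:83114376-83114405, plus strand) have adjacent codons. Cxcl12 (chr6:117121514-117121546, plus strand) and Cxcl10 (chr5:92777195-92777227, minus strand) have 1 codon between them, and Cx3cl1 (chr8:97301939-97301977, plus strand) has 3.
Ccl2: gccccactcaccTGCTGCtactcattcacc
Ccl20: agcaactacgacTGTTGCctctcgtacata
Cxcl12: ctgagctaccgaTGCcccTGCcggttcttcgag
Cxcl10: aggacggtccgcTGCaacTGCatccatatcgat
Cx3cl1: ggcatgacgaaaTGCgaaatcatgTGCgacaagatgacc

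Genes were called higher or lower in KO when the ratio of KO vs. WT was above 3/2 or below 2/3, the limits used in the study. Among 12171 genes listed in both tables with at least 1 FPKM in a library, 14.6% were past these limits, 7.9% above and 6.74% below. Of the 15 ligands that met the same terms, 3 (20%) were past the limits. Cx3cl1 was higher in KO, Ccl20 and Cxcl10 were lower, and 12 were within the limits. Of the 5 receptors, 2 (40%) were past the limits, among them Ccr1, which was lower in KO. The share of receptors rests on 5 genes only. Ccl20, Cxcl10 and Ccr1 reached 1 FPKM in WT alone, so the minimum level admitted them through the library where they were high. With at least 1 FPKM required in both libraries, 1 ligand (Cx3cl1) and 1 receptor were past the limits. The counting interval of the ratio did not include 1 in 8 of the 15 ligands and in 1 of the 5 receptors, against 40.5% of the 11734 genes for which an interval could be set.

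The summed level of ligand transcripts was 243 FPKM in WT and 260 in KO. In both libraries Cxcl12, Cx3cl1, Ccl2 and Ccl4 led, and together they held 55.2% of the sum in WT and 62.3% in KO. Cxcl12 was first in WT with 15.4% of the sum, and Cx3cl1 was first in KO with 26.6%. The median log2 ratio of KO vs. WT, with 0.1 FPKM added to both levels, was −0.33 over the 16 ligands of at least 1 FPKM and 0.02 over all 12646 such genes. The ligand median depended on Ccl17, Ccl20 and Cxcl10, which reached 1 FPKM in WT alone, and was −0.0512 over the 13 ligands with at least 1 FPKM in both libraries. The median over the 5 receptors was −0.12. Of the 15 ligands of at least 1 FPKM that were listed in both tables, 9 had a ratio under 1 and 6 had a ratio over 1. The 9 include Ccl20 and Cxcl10.

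**Figure D1:**
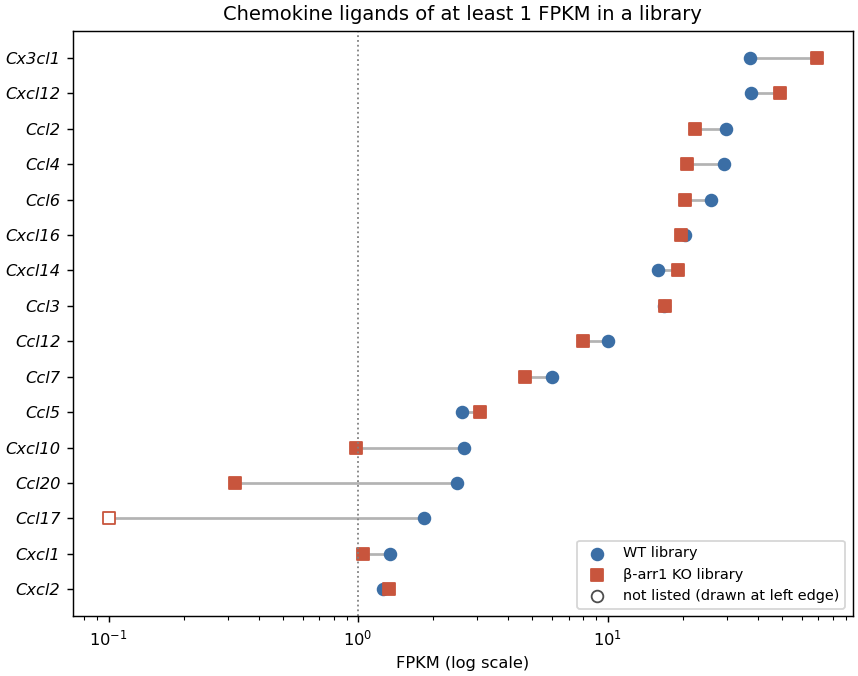
Level of each chemokine ligand of at least 1 FPKM in the WT and the KO library, in FPKM on a log axis, with 1 point per library and the dotted line at 1 FPKM. Hollow points at the left edge stand for genes not listed. Cx3cl1 lies further right in KO (69.2 FPKM) than in WT (37.3 FPKM), Ccl20 and Cxcl10 lie further left, and Ccl17 has a value in WT only.

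Cx3cl1 (fractalkine, gene 20312) is made as a membrane protein with the chemokine domain on a stalk, and is shed by Adam10 and Adam17. It was at 37.3 FPKM in WT and 69.2 in KO, from about 1092 and 2090 fragments, and the ratio of 1.86 had an interval of 1.72 to 1.998. It was the ligand with the highest ratio, and the only one above 3/2. It moved from the second to the first place among the ligands. The rows behind this comparison do not span the same ground. The WT row lies at chr8:97296080-97306326, whereas the KO row runs on to 97335936 and takes in Ccl17.

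Ccl17 (gene 20295), a ligand of Ccr4 that attracts T cells, is at chr8:97334353-97335935 on the plus strand. It was at 1.83 FPKM in WT, from about 6 fragments, and was not listed in KO, where the Cx3cl1 row covers its position. Among all genes, 475 with at least 1 FPKM were listed in a single table, and Ccl17 was the only chemokine or receptor gene among them. The levels of Cx3cl1 and Ccl17 summed to 39.1 FPKM in WT and 69.2 in KO, a ratio of 1.77, which was still above 3/2. What part of the KO value of Cx3cl1 came from Ccl17 cannot be told from the tables.

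**Figure D2:**
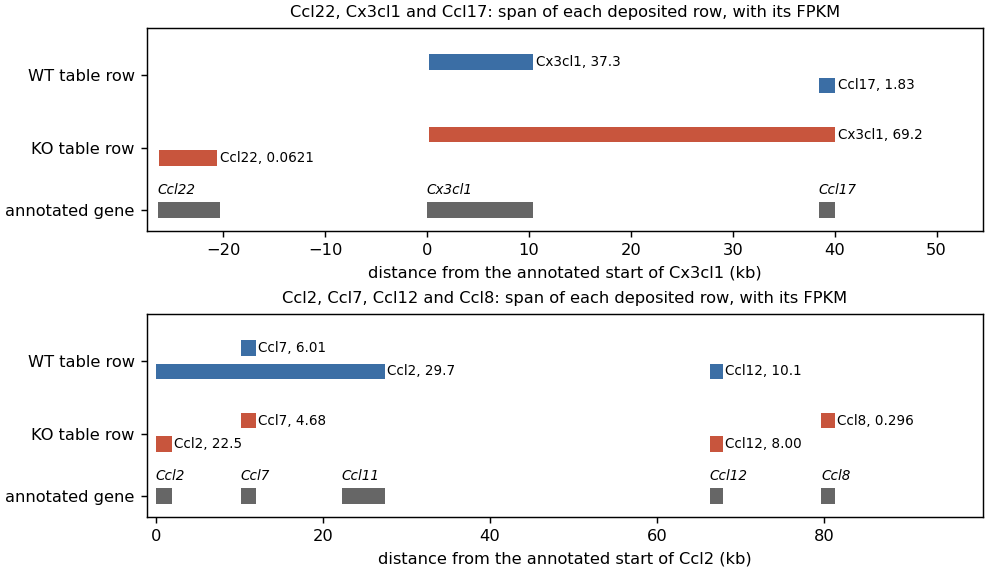
Genomic span of the deposited rows around Cx3cl1 (top) and Ccl2 (bottom), in kb from the annotated start of that gene, with the FPKM of each row written beside it and the annotated genes in grey. The KO row of Cx3cl1 extends over Ccl17, and the WT row of Ccl2 extends over Ccl7 and Ccl11.

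CC ligands of at least 1 FPKM formed 2 groups on chromosome 11. The first holds Ccl2, Ccl7 and Ccl12, ligands of Ccr2 that attract monocytes. Ccl2 (gene 20296) was at 29.7 FPKM in WT and 22.5 in KO, a ratio of 0.757 with an interval of 0.626 to 0.914. Ccl7 was at 6.01 FPKM in WT and 4.68 in KO (0.778, 0.457 to 1.32), and Ccl12 was at 10.1 in WT and 8.001 FPKM in KO (0.796, 0.469 to 1.35). The ratios of the 3 ran from 0.757 to 0.796, all within the limits, and the intervals of Ccl7 and Ccl12 included 1. The WT row of Ccl2 (chr11:81849079-81876457) also takes in Ccl7 and Ccl11, whereas the KO row ends at 81850954. The levels of Ccl2 and Ccl7 summed to 35.7 FPKM in WT and 27.2 in KO, a ratio of 0.761.

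The other group holds Ccl5, Ccl6, Ccl3 and Ccl4. Ccl3 and Ccl4 are macrophage inflammatory proteins, and Ccl3 binds Ccr1. Ccl4 was at 29.4 FPKM in WT and 20.9 in KO, a ratio of 0.711 with an interval of 0.543 to 0.928. Ccl3, its neighbour on the chromosome, was at 16.9 FPKM in WT and 17.0 in KO, a ratio of 1.01 with an interval of 0.753 to 1.35. The intervals of the neighbours overlapped, and the difference between their ratios was not tested. Ccl6, a ligand of Ccr1 found in mouse but not in human, was at 25.95 FPKM in WT and 20.5 in KO (0.791, 0.667 to 0.937), and its row covers Ccl9 in both tables. Ccl5 (RANTES), which binds Ccr1 and Ccr3, was at 2.62 FPKM in WT and 3.08 in KO (1.17, 0.513 to 2.75). Ratios in this group ran from 0.711 to 1.17, with 2 of 4 under 1, and none was past the limits.

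Ccl20 (gene 20297), the ligand of Ccr6, lies apart from these groups, at chr1:83113341-83115742 on the plus strand, with 3 exons. It was at 2.4996 in WT and 0.323 FPKM in KO, a log2 ratio of −2.95. The ratio of 0.129 was the lowest of all 20 chemokine and receptor genes that were compared. The value rests on about 29 fragments in WT and 4 in KO, and the interval was 0.0330 to 0.367. The row had the same bounds in both tables.

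Among the CXC ligands, Cxcl12 (stromal cell derived factor, gene 20315), the ligand of Cxcr4 and Cxcr7, was at 37.4 FPKM in WT and 49.2 in KO. Its ratio of 1.32 was within the limits, and from about 1909 and 2572 fragments the interval was 1.24 to 1.396. Cxcl14, which is expressed in many epithelia and in brain, was at 15.96 FPKM in WT and 19.2 in KO (1.20, 1.01 to 1.43). Cxcl16, which like Cx3cl1 is made on the membrane and shed, was at 20.4 in WT and 19.7 FPKM in KO (0.965, 0.848 to 1.10), in a row that overlaps Zmynd15. So the 2 membrane-bound ligands differed, with Cx3cl1 higher in KO and Cxcl16 at nearly the same level in both libraries.

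Cxcl10 (IP-10, gene 15945) is an interferon-induced ligand of Cxcr3, at chr5:92775665-92777915 on the minus strand, with 4 exons. It was at 2.67 FPKM in WT and 0.984 in KO, a ratio of 0.368 with an interval of 0.1501 to 0.827, from about 23 and 9 fragments. Its locus lies within Art3, a gene on the other strand (chr5:92760853-92843654), which was at 3.59 FPKM in WT and 6.72 in KO (ratio 1.87). Whether reads were counted by strand is not given in the sources used here, so fragments of Cxcl10 and Art3 may not be separate. Summed over the overlapping loci of Cxcl10, Art3 and Cxcl11, the ratio was 1.22, on the other side of 1. The other interferon-induced ligands of Cxcr3 were low, with Cxcl9 at 0.0766 FPKM and Cxcl11 at 0.0741 FPKM in WT, and neither was listed in KO.

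Cxcl1 and Cxcl2, which attract neutrophils through Cxcr2, were near 1 FPKM. Cxcl1 was at 1.35 in WT and 1.04 FPKM in KO (0.774, 0.266 to 2.18), and Cxcl2 was at 1.26 FPKM in WT and 1.34 in KO (1.06, 0.541 to 2.08). Both intervals were wide and included 1. The WT row of Cxcl2 runs from 91215129 to 91334964 on chromosome 5 and takes in Cxcl1, Cxcl3 and Cxcl15, whereas the KO row starts at 91332925. Cxcl3, a ligand of the same receptor, was at 0.362 FPKM in KO and was not listed in WT. The 3 ligands summed to 2.61 FPKM in WT and 2.74 in KO, a ratio of 1.05.

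The promoters of Ccl20, Cxcl10, Cxcl1 and Cxcl2 are shown because the first 2 genes were lower in KO and the others, induced by many of the same stimuli, were within the limits. The bases before the gene start come from RefSeq (GRCm38.p6), written 5′ to 3′ on the strand of the gene. Capitals mark matches to the NF-κB consensus and, in Cxcl10, to the core of the interferon-stimulated response element, GAAANNGAAA, each searched on both strands. The intervals are chr1:83116646-83116765 (plus strand) for Ccl20, chr5:92348890-92349112 (minus strand) for Cxcl10, chr5:90891125-90891244 (plus strand) for Cxcl1 and chr5:90903779-90903898 (plus strand) for Cxcl2.
Ccl20: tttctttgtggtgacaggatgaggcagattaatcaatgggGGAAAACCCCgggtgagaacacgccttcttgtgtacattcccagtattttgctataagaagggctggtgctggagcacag
Cxcl10: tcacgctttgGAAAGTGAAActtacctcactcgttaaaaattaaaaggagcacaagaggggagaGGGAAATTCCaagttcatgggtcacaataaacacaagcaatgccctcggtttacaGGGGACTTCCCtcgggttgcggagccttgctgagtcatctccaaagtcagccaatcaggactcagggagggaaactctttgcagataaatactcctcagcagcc
Cxcl1: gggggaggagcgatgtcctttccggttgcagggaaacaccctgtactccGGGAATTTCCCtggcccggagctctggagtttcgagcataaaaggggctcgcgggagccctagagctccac
Cxcl2: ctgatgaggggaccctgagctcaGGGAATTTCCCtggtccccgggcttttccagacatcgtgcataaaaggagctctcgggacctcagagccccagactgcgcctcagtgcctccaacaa

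The promoter table matched 34 of the 46 genes, with windows of 300 bases. The NF-κB consensus was found in 10 of the 34 genes, against 8.46% of 32851 promoters and 9.55% of 27025 genes. The interferon core was found in 2 of the 34, Cxcl10 and Cxcl14, against 3.44% of promoters and 3.99% of genes. In Cxcl10, 203 bases lie between the end of this match and the gene start, and 149 and 93 bases between the NF-κB matches and the gene start. A match describes these letters only and shows no binding. The promoter of 6 compared genes (among them Ccl2, Ccl4, Ccl5, Ccl7 and Cxcl16) was not analysed here.

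The typical receptors summed to 45.4 in WT and 40.5 FPKM in KO, and Cx3cr1 held 54.6% and 64.1% of these sums. Cx3cr1 (gene 13051), the receptor of fractalkine and a marker of microglia in the brain, was at 24.8 FPKM in WT and 25.9 in KO. Its ratio of 1.05 had an interval of 0.9498 to 1.15, from about 823 and 886 fragments. Cxcr4 (gene 12767), the signalling receptor of Cxcl12, was at 7.84 FPKM in WT and 7.19 in KO (0.916, 0.702 to 1.19). These 2 receptors were thus at nearly the same level in both libraries.

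Ccr1 (gene 12768), which binds Ccl3, Ccl5 and Ccl6, was at 1.06 FPKM in WT and 0.613 in KO. The ratio of 0.576 was below 2/3, but with about 26 and 16 fragments the interval ran from 0.289 to 1.12 and included 1. With 1 FPKM added to both levels its ratio was 0.782, within the limits.

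**Figure D3:**
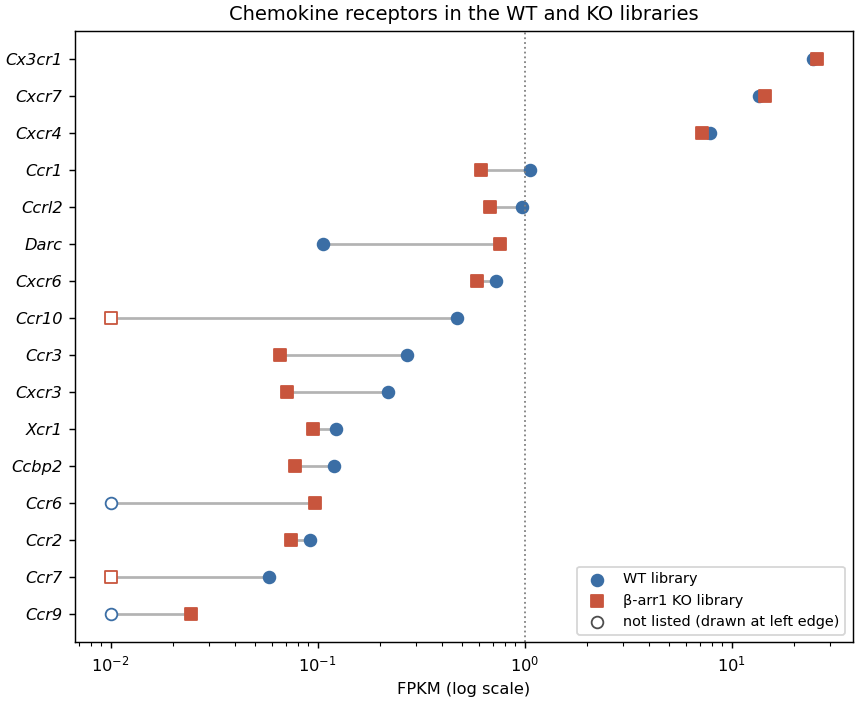
Level of typical and atypical chemokine receptors in the WT and the KO library, in FPKM on a log axis, with 1 point per library, hollow points at the left edge for genes not listed and the dotted line at 1 FPKM. Cx3cr1, Cxcr7 and Cxcr4 have nearly the same level in both libraries, and Ccr1 is lower in KO.

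The atypical receptors were represented by Cxcr7 (now Ackr3, gene 12778), which takes up Cxcl12 and recruits β-arrestins. It was at 13.5 FPKM in WT and 14.5 in KO, a ratio of 1.07 with an interval of 0.925 to 1.23, and it held 91.9% and 90.5% of the sum over atypical receptors. The other 3 were below 1 FPKM. Ccrl2, which binds chemerin, was at 0.973 in WT and 0.683 FPKM in KO. Darc (now Ackr1), the Duffy antigen, was at 0.106 FPKM in WT and 0.762 in KO, from about 1 and 7 fragments, so that the interval of its ratio ran from 0.922 to 323. Ccbp2 (now Ackr2), a scavenger of CC ligands, was at 0.120 FPKM in WT and 0.0780 in KO.

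Below 1 FPKM lay 13 ligands and 12 receptors. The higher value of the 2 libraries was between 0.0499 and 0.592 FPKM in these ligands and between 0.0246 and 0.973 FPKM in these receptors. Among those listed in both tables for which a counting interval could be set, none left out 1. No interval could be set for Ccl21b and Ccl28. Differences between the libraries could not be detected with so few fragments. In WT alone, Ccr10, the receptor of Ccl27 and Ccl28, whose row overlaps Cntnap1, was listed at 0.472 FPKM, Cxcl17 at 0.178 FPKM and Cxcl5 at 0.141 FPKM. In KO alone, besides Cxcl3, Ccl27b, whose row overlaps Il11ra2, was listed at 0.428 FPKM and Ccl8 at 0.296 FPKM. Ccl28 was at 0.470 in WT and 0.592 FPKM in KO, and Cxcl13, the ligand of Cxcr5, at 0.317 FPKM in WT and 0.205 in KO. Cxcr6, which binds Cxcl16, was at 0.730 FPKM in WT and 0.591 in KO, and its locus lies within Fyco1. The remaining genes listed in both tables were Ccl21b, which has near-identical copies and is uncertain for that reason, Ccr2, Ccr3, Cxcr3 and Xcr1. Those listed in WT only were Cxcl9, Cxcl11 and Ccr7, and those listed in KO only were Ccl21a, Ccl22, Ccl24, Ccr6 and Ccr9.

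**Figure D4:**
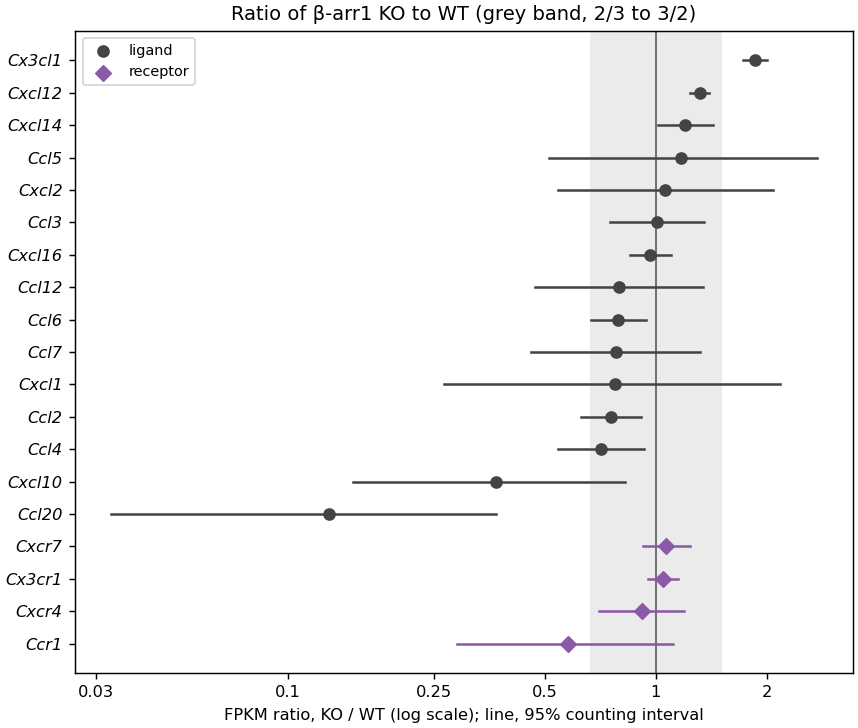
Ratio of KO vs. WT of chemokine and receptor genes of at least 1 FPKM listed in both tables, on a log axis, with 95% intervals that cover counting error only and the band between 2/3 and 3/2 in grey. Cx3cl1 lies above the band, Ccl20, Cxcl10 and Ccr1 have ratios below it, and the intervals are widest for the genes with few fragments.

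Ligands and receptors were set side by side as known pairs. For fractalkine, the ligand was 1.86 times as high in KO and its receptor Cx3cr1 was 1.05 times as high. For Cxcl12, the ligand ratio was 1.32, and its receptors Cxcr4 and Cxcr7 had ratios of 0.916 and 1.07. Ccr1 had a ratio of 0.576, while its ligands Ccl3, Ccl5 and Ccl6 had ratios of 1.01, 1.17 and 0.791. Several ligands were listed without much of their receptor. Ccr2, the receptor of Ccl2, Ccl7 and Ccl12, was at 0.0919 in WT and 0.0746 FPKM in KO. Ccr6, the receptor of Ccl20, was at 0.0968 FPKM in KO and not listed in WT, and Cxcr3, the receptor of Cxcl10, was at 0.219 FPKM in WT and 0.0708 in KO. Ccr4 and Cxcr2, which bind Ccl17 and the Cxcl1 group, were in neither table.

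The pathway downstream of the receptors was described by a list of 40 genes for G proteins, kinases, arrestins and migration. Of the 38 that met the terms, 2 were above 3/2, 4 were below 2/3 and 32 were within the limits, which is close to the 14.6% of all genes past them. Gnai2, the Gi subunit that most chemokine receptors use, was at 343 FPKM in WT and 381 in KO. Below the limits, beside Arrb1 itself, were Rac2, Vav1 and Rgs1. Rac2, a GTPase of leukocyte migration, was at 42.9 FPKM in WT and 7.80 in KO, a ratio of 0.182 with an interval of 0.157 to 0.211. Vav1, an exchange factor for Rac, was at 12.7 FPKM in WT and 7.21 in KO (0.570). Rgs1, which shortens G protein signalling, was at 5.21 FPKM in WT and 2.98 in KO (0.573). Rgs16, another such regulator, was at 36.1 in WT and 64.0 FPKM in KO (1.77), and Plcb1, a phospholipase, at 1.39 FPKM in WT and 2.25 in KO (1.62). Arrb2, the other β-arrestin, was at 31.6 FPKM in WT and 23.3 in KO, a ratio of 0.737, and the receptor kinase gene Adrbk1 had a ratio of 0.908.

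Inducers of chemokine genes and the NF-κB pathway made a list of 35 genes, of which 31 met the terms. Ratios ran from 0.704 to 1.54, and only Il1rap, a subunit of the interleukin 1 receptor, was past the limits, at 9.20 in WT and 14.2 FPKM in KO. Tnf, a cytokine that induces many chemokines, was at 5.58 FPKM in WT and 3.94 in KO (0.706), and its interval of 0.491 to 1.01 included 1. Other cytokines of the list did not go the same way. Il6 had a ratio of 1.08. Below 1 FPKM, Il1a was at 0.503 FPKM in WT and 0.947 in KO, and Il1b was listed in KO only, at 0.352 FPKM. Rela, an NF-κB subunit, was at 30.7 FPKM in WT and 32.4 in KO, and Nfkbia, an inhibitor and target of NF-κB, at 27.4 in WT and 27.9 FPKM in KO. Ifng and Il17a were in neither table.

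Proteases and proteoglycans that cut or hold chemokines made a list of 22 genes, and 17 of the 18 that met the terms were within the limits. Adam10 was at 43.0 FPKM in WT and 46.9 in KO and Adam17 at 19.4 FPKM in WT and 18.4 in KO, so the transcripts of these sheddases of Cx3cl1 and Cxcl16 were at nearly the same level. Ctss, a cathepsin that can also cut Cx3cl1, was at 167 FPKM in WT and 122 in KO, a ratio of 0.726 with an interval of 0.677 to 0.779. Mmp2, a gelatinase that trims Cxcl12 and Ccl7, was at 137 in WT and 50.9 FPKM in KO (0.371). Its WT row also spans Lpcat2, which had no row in WT and 11.98 FPKM in KO, and the ratio of the summed levels was 0.458.

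Several chemokine and receptor genes are expressed by microglia, and the markers of these cells also differed between the libraries. In bulk RNA, fewer cells of a type and less RNA per cell cannot be told apart. All 17 listed microglia and macrophage markers had ratios under 1, from 0.629 to 0.961, and the ratio of their sums was 0.765. C1qa, a complement gene, was at 246 FPKM in WT and 181 in KO, Csf1r at 146 FPKM in WT and 135 in KO, and Emr1 at 48.2 in WT and 30.3 FPKM in KO. Ccr1 had a lower ratio than all 17 markers, whereas Cx3cr1, Ccl3 and Ccl5 had higher ratios than all 17. However, the counting intervals of Ccr1 (0.289 to 1.12) and Ccl5 (0.513 to 2.75) covered the whole range of the marker ratios. Those of Ccl3 (0.753 to 1.35) and Cx3cr1 (0.9498 to 1.15) overlapped it. Ccl2, Ccl7, Ccl12, Ccl4, Ccl6 and Cxcr4 lay among the markers. The part of these cells in the differences was not tested.

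**Figure D5:**
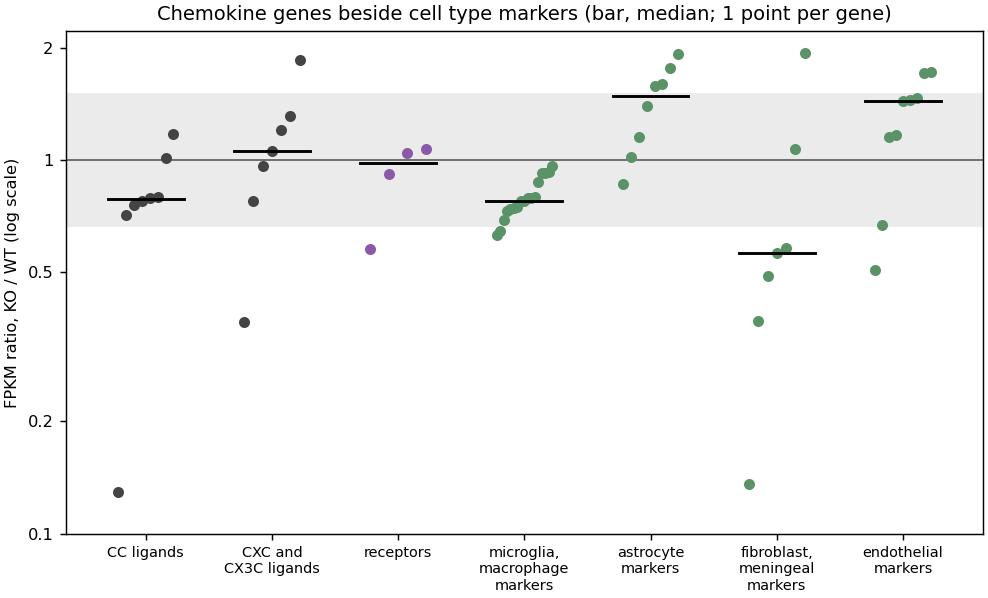
Ratio of KO vs. WT of chemokine and receptor genes beside those of markers of microglia and macrophages, of astrocytes, of fibroblasts and of endothelial cells, on a log axis, with 1 point per gene, a bar at the median and the band between 2/3 and 3/2 in grey. The 17 microglia and macrophage markers lie between 0.629 and 0.961. The ratios of the lowest CC ligand (Ccl20), the lowest CXC ligand (Cxcl10) and the lowest receptor (Ccr1) lie below all of them. Ccl20, Cxcl10 and Ccr1 reached 1 FPKM in WT alone, so the minimum level admitted them through the library where they were high. Counting intervals, not drawn, of Cxcl10 and Ccr1 overlap the marker range, and the Cxcl10 ratio is 1.22 with overlapping loci summed.

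Other cell types moved in more than 1 direction. Of 8 astrocyte markers, 4 were above 3/2 in KO (Aqp4, Slc1a2, S100b and Aldoc) and 0 were below 2/3, and their sum was 299.6 FPKM in WT and 343 in KO. Of 7 fibroblast and meningeal markers that met the terms, 5 were below 2/3 (Col1a1, Col1a2, Col3a1, Dcn and Postn) and Pdgfra was above 3/2, at 3.12 FPKM in WT and 6.03 in KO. Col1a1, the most abundant, was at 420.5 FPKM in WT and 237 in KO, with a sum over the list of 649.6 in WT and 359.9 FPKM in KO. Fibroblasts are a further known source of Cxcl12 and Ccl2. The endothelial sum was 98.8 FPKM in WT and 99.9 in KO, but Pecam1 (ratio 1.72) and Flt1 (1.71) were above 3/2 and Cdh5 (0.507) was below 2/3. The sum of pericyte and smooth muscle markers, mostly Acta2, was 2563 FPKM in WT and 2577 in KO. Of the 5 that met the terms, Rgs5 was below 2/3, at 5.83 FPKM in WT and 3.58 in KO (0.615), and 4 were within the limits. The oligodendrocyte lineage sum was 83.2 FPKM in WT and 121 in KO, with Olig1, Olig2 and Sox10 above 3/2. That of neurons was 48.6 FPKM in WT and 64.5 in KO, mostly Tubb3 (44.7 in WT and 59.8 in KO). Only 2 of the 7 neuron markers met the terms, and both were within the limits. Lymphocyte and neutrophil markers were scarce, with 6 of 10 in neither table, among them Cd3d, Cd3e, Cd4 and Cd8a. Their sum was 10.2 in WT and 10.4 FPKM in KO, but the 2 that met the terms went in opposite directions. Csf3r was below 2/3, at 4.54 FPKM in WT and 2.72 in KO (0.599). S100a8 was within the limits, at 5.22 FPKM in WT and 7.67 in KO (1.47). The part of these markers in the chemokine values was not tested.

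The symbol rule would also have taken 9 annotated ligand and 6 annotated receptor genes that are in neither table. The ligands are Ccl1, Ccl9, Ccl11, Ccl19, Ccl21c, Ccl25, Ccl26, Ccl27a and Cxcl15, and the receptors are Ccr4, Ccr8, Ccrl1, Cxcr1, Cxcr2 and Cxcr5. Ccl9, Ccl11 and Cxcl15 lie within rows that carry the symbols Ccl6, Ccl2 and Cxcl2, so their place in neither table does not show that they were silent.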

How the data were processed

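RNA sequencing of 1 WT and 1 β-arr1 KO library of cultured DG astrocytes was analysed from 1 table per library. The authors aligned paired reads to mm9 with TopHat (version 1.4.0 in the submitters' processing notes) and ran Cufflinks, and deposited FPKM values per gene, 15417 rows in WT and 15457 in KO. The annotation, the version of Cufflinks and the strandedness are not given in the sources used here.

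Tables were joined on gene symbol, with the highest row kept for a repeated symbol. Ratios of KO vs. WT used the deposited FPKM without a pseudocount. Genes with at least 1 FPKM in a library and listed in both tables were compared, with limits of 3/2 and 2/3. With 1 library per genotype, no p-value was computed. The depth was estimated from low values, which fell on steps of whole fragments in 69.6% of 424 genes in WT and 70.2% of 440 in KO (within 5% of a step). Fragments per gene used the length of the longest GENCODE transcript, less a fitted allowance of 190 bases in WT and 140 in KO. The same transcript was used for both libraries, so that intervals do not cover rows of unequal span. Loci were shifted by 1 to count from 1. The computation was tested on simulated data.

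The genes and lists were chosen with earlier results of these data known. Every chemokine and receptor gene of at least 1 FPKM was named, as was every one listed in 1 table at 0.1 FPKM or more, except 1 receptor, which enters the counts and sums but is not reported here. Of the pathway lists, genes past the limits with at least 5 FPKM in one library and 1 FPKM in the other were named by rule, and the other pathway and marker genes were picked as examples after their values were seen. Alternatives were other minima, pseudocounts, scalings and limits, rows with the same bounds, and overlapping loci summed. Computations ran in Python 3.11.15 with pandas 2.3.3, numpy 2.4.6 and scipy 1.17.1, and plots in matplotlib 3.10.9.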

Additional observations from a re-analysis of the deposited data

How the results depend on the processing

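Counts of genes past the limits rested on the minimum level. The ligand count of 3 became 1 with a minimum of 5 FPKM, 1 with at least 1 FPKM in both libraries and 5 with any value above 0 in both. The receptor count of 2 became 6 with a minimum of 0.1 FPKM or any value above 0 in both, and 1 with a minimum of 5 FPKM, with at least 1 FPKM in both, with a pseudocount of 1 FPKM or with rows of the same bounds, and 0 with limits of 2 and 1/2. The median log2 ratio of ligands was −0.0512 with at least 1 FPKM in both libraries, where Ccl20, Cxcl10 and Ccl17 leave the set. The ratio of Cxcl10 reversed to 1.22 when its level was summed with those of the overlapping loci, Art3 and Cxcl11. Of 140 ratios of single genes under these alternatives, 138 stayed within the counting interval of the reported ratio. With a pseudocount of 1 FPKM, Ccl20 moved to 0.378 and remained below 2/3, and Ccr1 moved to 0.782, within the limits. With limits of 2 and 1/2, Cx3cl1 was no longer past them. The depth limits genes below 1 FPKM, none of which had more than 17.5 estimated fragments in a library, where fragments could be estimated (not for Ccl28). No paired analysis was possible because there was 1 library per genotype.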

Other observations

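Genes with chemokine-like function but other symbols were listed apart. Mif, a cytokine that binds Cd74, Cxcr2 and Cxcr4, was at 86.3 FPKM in WT and 262 in KO, a ratio of 3.03 with a counting interval of 2.66 to 3.47. It is a short gene with many processed pseudogenes, so its value is uncertain. Cd74, its receptor on the membrane, was at 1.29 FPKM in WT and 1.35 in KO. The platelet chemokine genes were within the limits, with Pf4 at 16.1 in WT and 10.9 FPKM in KO (0.676) and Ppbp at 1.499 FPKM in WT and 2.23 in KO (1.49). Cklf was at 10.9 FPKM in WT and 15.6 in KO (1.43). Of chemerin and its receptor, Rarres2 was at 1.15 FPKM in KO and not listed in WT, and Cmklr1 was at 7.01 in WT and 8.37 FPKM in KO (1.19). Xcl1, the ligand of Xcr1, was in neither table. Of the 6 genes that met the terms, Mif alone was past the limits, and no replicate bears on these differences.

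Among the proteases, Mmp3 was at 5.23 FPKM in KO and not listed in WT. Mmp9 and Ctsg had rows in the WT table only, at 0.635 and 0.378 FPKM.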
